A study of Homo sapiens with 16 samples.

Results

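Pericentromeric bins are the stretches of the genome map that lie next to the centromeres, and 4920 bins of 20 kb were followed here across 4 lengths of chromatin digestion. A bin counts here as having contacts where the deposited data list any, and filters applied before that are not known. For each autosome the longest run of bins without a listed contact in any of the 8 libraries was taken as the centromeric gap. Bins with contacts within 3 Mb of either end of that run were the members. This gave 5034 bins with a contact in at least 1 library, of 130993 such autosomal bins and 138264 such bins in the whole series (3.84% of the autosomal ones). All values below use the 4920 that had contacts in every library. The remaining 125078 autosomal bins with contacts in every library served for comparison, as did 5159 flanking bins, 3 to 6 Mb from the run, and 5169 subtelomeric bins, within 3 Mb of the outermost bins with contacts on each chromosome.

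Centromeres rest on long arrays of alpha satellite, a tandem repeat, and the sequence next to them is rich in other satellites and in segmental duplications, long copies shared between chromosomes. Pericentromeric chromatin is largely packed as constitutive heterochromatin, and in many nuclei the pericentromeric regions of several chromosomes gather near the nucleoli or the nuclear periphery. Reads from shared copies can be placed on the wrong chromosome, and the reference map of these regions is incomplete. A contact between 2 pericentromeric bins can therefore join distant loci or a single locus that was mapped to both places. In cells with rearranged chromosomes it can also join loci that lie on the same rearranged chromosome.

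The measurements were Hi-C contacts in nuclei of K562, an established human chronic myeloid leukaemia line that is aneuploid and carries rearranged chromosomes. Per the labels, every library came from formaldehyde-fixed cells digested with the restriction enzyme HindIII, and the groups differed only in digestion time: 0.25, 1, 3 or 12 h, with 2 replicate libraries each. The series varied the time to reach the most accessible domain boundaries at the shortest digestions, and the comparisons below therefore set 0.25 h against later times. The labels do not say whether replicates were separate cultures, so p-values refer to these libraries only, and their spread may be technical.

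Libraries of the second sequencing run, deposited at 20 kb, held 62777251 to 176412222 contacts. Depth was higher at 12 h (164939064 ± 16225496 contacts, SD, n = 2) than at 0.25 h (88557790 ± 36459187), so the part of depth and of digestion time in a trend cannot be fully told apart. The shallowest library, 0.25 h replicate 2, also had the highest self-bin shares. Expression of marker genes is not measured by these contact maps, and the cell line was taken from the labels.

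The members were checked against their name through the shape of the runs. The run spanned 2.98 to 3.32 Mb on chromosomes 2 to 8, 10 to 12 and 17 to 20, 11.18 Mb on chromosome 16, 18.38 Mb on chromosome 9 and 21.04 Mb on chromosome 1 (hg19 121500001 to 142540000). On the 5 acrocentric chromosomes, 13, 14, 15, 21 and 22, the run began at the first base, so members could lie only after it. On chromosome 21 that run ended at hg19 position 9400000, and another run without contacts, of 3.14 Mb, went from 11180001 to 14320000. All 60 members of chromosome 21 lie before this later gap, the one that holds its centromere in hg19, and are therefore short-arm bins. On chromosome 9 another run of 5.82 Mb lay from 20760001 to 26580000, before all of its members and on the short arm, where K562 is known to carry a homozygous deletion. Of the 5850 bins inside the windows, 86.1% had contacts in at least 1 library, against 97.4% of the autosomal bins outside windows and runs. The lowest window was that of chromosome 9, where 19% of bins had contacts and 47 members were left. Members came and went between libraries more than other bins did, with 2.26% present in some but not all libraries against 0.699%.

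The self-bin share, the contacts with both ends in the same 20 kb bin as a percentage of all contacts of the bins, was higher in pericentromeric bins than in the rest of the autosomes and fell with digestion time in both (Spearman's rho with log2 hours -0.976 in each). In the members it was 15.5% and 18.9% in the 2 libraries digested for 0.25 h, 14.3% and 14.9% after 1 h, 13.9% and 14% after 3 h, and 8.75% and 8.66% after 12 h. Both 0.25 h libraries lay above all others, and both 12 h libraries lay well below the rest. Other autosomal bins went from 12.4% ± 1.69 (SD, n = 2) at 0.25 h to 6.06% ± 0.0733 at 12 h, and flanking bins from 12.8% ± 1.83 to 6.22% ± 0.0709. In the members the share was ordered with log2 hours (Spearman's rho -0.976, exact two-sided permutation p = 0.000794, the smallest possible, adjusted over 9 trends 0.00714; Pearson's r -0.924, exact permutation p = 0.000794, n = 8). Pearson's r was -0.939 without the 0.25 h libraries and -0.793 without those of 12 h. With total contacts in place of time, rho was -0.857 (exact permutation p = 0.0107, adjusted over 9 relations 0.0241) and r -0.861 (exact permutation p = 0.00977, adjusted 0.0220; -0.627 without the shallowest and the deepest library).

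Summed over bins, the excess over the rest of the autosomes did not depend detectably on time. The odds of a self-bin contact in members over those in other autosomal bins were 1.47 ± 0.0187, 1.48 ± 0.0235, 1.5 ± 0.0168 and 1.48 ± 0.00747 at 0.25, 1, 3 and 12 h (SD, n = 2). Over the libraries the log2 odds ratio was 0.57 ± 0.018 (SD, n = 8), above 0 in 8 of 8 (exact two-sided sign-flip permutation p = 0.00781, the smallest possible with 8 libraries). Its trend with time gave rho 0.195 (exact permutation p = 0.672) and r 0.247 (exact permutation p = 0.557). Here and below, a sign-flip p of 0.00781 says only that a difference between fixed sets of bins kept its sign in all 8 libraries. Any stable offset between sets would reach it.

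This excess came from a minority of bins, and the typical pericentromeric bin had a slightly lower self-bin share than the typical bin elsewhere. The median bin held 7.14% ± 0.209 self contacts at 0.25 h and 4.1% ± 0.0366 at 12 h among members, against 7.60% ± 0.355 and 4.25% ± 0.0492 among other autosomal bins (SD, n = 2). Compared as medians over bins, the log2 difference was -0.071, the reverse of the summed result, with the same sign in all libraries (exact sign-flip permutation p = 0.00781). This difference of medians rose towards longer digestion (rho 0.878, exact permutation p = 0.0103, not adjusted), unlike the summed excess. With libraries added, the lower and upper quartiles of the share were 2.57% and 10.2% in members and 2.89% and 9.92% in other bins, so the members were more spread out in both directions. The median over the added libraries was 5.82% in members, 5.91% in flanking bins and 6.08% in other autosomal bins, so flanking bins also lay below the rest.

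**Figure D1:**
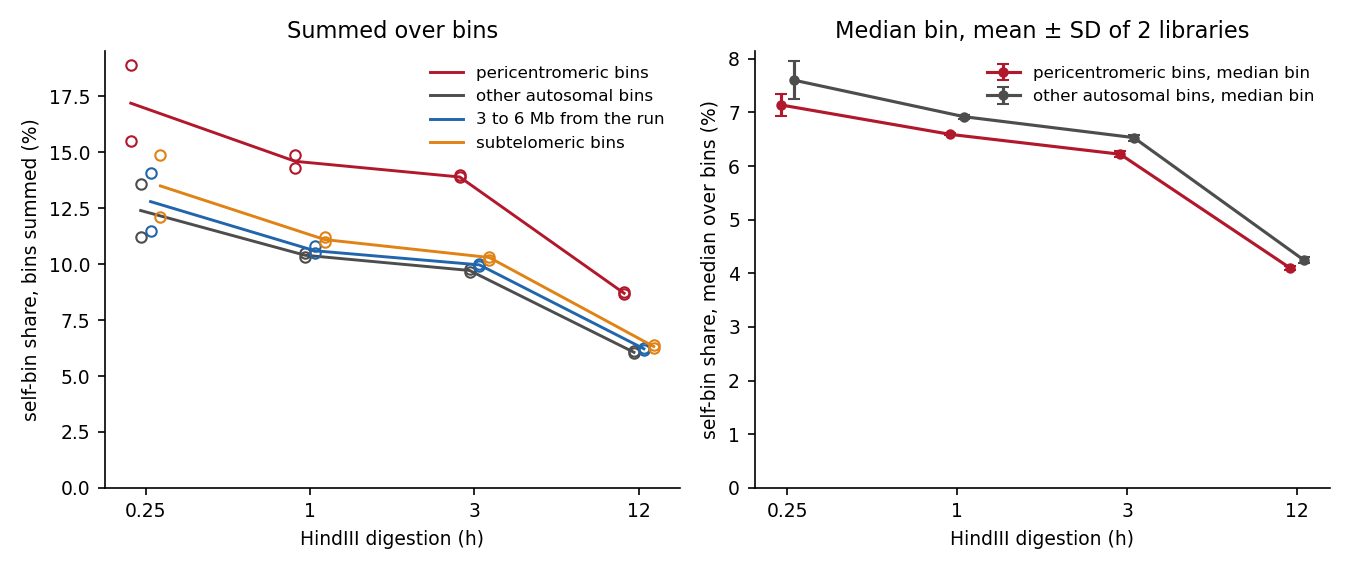
Self-bin share against HindIII digestion time in hours. Left, contacts summed over all bins of a set, with each circle 1 library and lines through the means of 2. Right, the median bin of each set as mean ± SD of 2 libraries. Summed shares of pericentromeric bins lie above the other sets at every time, whereas their median bin lies below that of other autosomal bins (7.14% against 7.60% at 0.25 h).

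A group of heavily covered bins carried the difference. Of the members, 177 (3.6%) held over 3 times the median number of contacts, against 1.25% of other autosomal bins, and these 177 held 45.0% of all self contacts of the members. Their self-bin share was 31.2% ± 2.80, 28.2% ± 0.654, 26.9% ± 0.148 and 19% ± 0.0161 at 0.25, 1, 3 and 12 h (SD, n = 2). They sat on 13 chromosomes, most on chromosome 11 with 36, chromosomes 5 and 7 with 28 each, chromosome 12 with 26 and chromosome 19 with 23, and 95 lay within 0.5 Mb of the run. On chromosome 5 all 28 were on the short-arm side and on chromosome 7 all 28 on the long-arm side. Without such bins on either side, members had 12.6% ± 1.77 at 0.25 h and 6.16% ± 0.0627 at 12 h and other bins 12.0% ± 1.66 and 5.90% ± 0.0703, a log2 odds ratio of 0.066, still above 0 (exact sign-flip permutation p = 0.00781, n = 8). The bins over 3 times the median were set apart after their values were seen.

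The self-bin share was steeply graded along the chromosome. Within 0.5 Mb of the run it was 26.4% ± 3.08 at 0.25 h and 14.8% ± 0.0576 at 12 h, over 782 bins. From 0.5 to 1 Mb it was 15.7% ± 2.36 and 7.54% ± 0.0798, and from 2 to 3 Mb 13.1% ± 1.79 and 6.45% ± 0.0753. From 3 to 6 Mb (12.8% and 6.22%) and from 6 to 9 Mb (12.7% and 6.17%) the bands differed from each other by less than the SD. Contacts per bin followed the same first step: relative to other autosomal bins they were 1.30 ± 0.0832 in the first band at 0.25 h and 0.793 ± 0.00651 in the second. Against other autosomal bins, members beyond 0.5 Mb, a subset chosen after seeing the data, had a log2 odds ratio of 0.23 in place of 0.57 (exact sign-flip permutation p = 0.00781, n = 8), and members within 1.5 Mb had 0.89. Near contacts with absent bins are not counted, which by construction can raise the self-bin share beside gaps. Mean shares of members with an absent bin among the 5 on a side were 20.4% at 0.25 h and 10.6% at 12 h. With all neighbours present they were 16.6% and 8.31%. With only these members, and other bins not restricted, the log2 odds ratio was 0.497 (exact sign-flip permutation p = 0.00781, n = 8). The part of absent bins in the gradient was not tested.

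**Figure D2:**
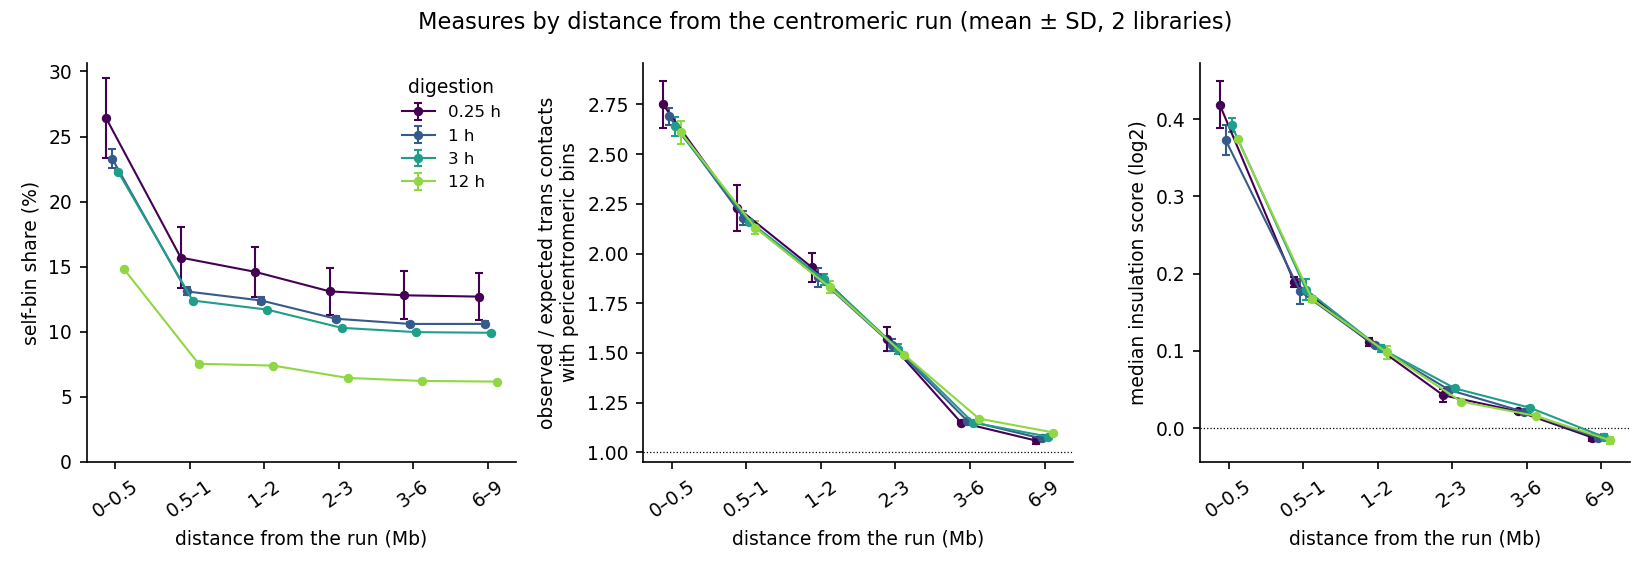
Self-bin share (%), observed over expected contacts with pericentromeric bins of other chromosomes, and median balanced insulation score (log2), against distance from the centromeric run in Mb. Each point is the mean ± SD of 2 libraries per digestion time. All measures are highest within 0.5 Mb and approach the level of the chromosome arm beyond 3 Mb. Within 0.5 Mb the gap cuts the insulation square, and near contacts with absent bins are not counted. Digestion times separate clearly only in the self-bin share.

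Chromosomes differed widely in this measure. On 17 of 22 the members had a higher self-bin share than the rest of their own chromosome in all 8 libraries. The highest odds ratio over the own chromosome, as the mean of 8 libraries, was 2.35 on chromosome 7, and chromosomes 19, 11, 12 and 5 followed with 2.13, 1.88, 1.75 and 1.57. On chromosome 19 the share was 26.8% ± 3.68 at 0.25 h and 13.4% ± 0.188 at 12 h, against 15.4% and 6.70% in the rest of it, and its members held 3.00 times the contacts per bin of that rest. Members were below the rest of their chromosome in all 8 libraries on chromosomes 1, 9 and 15. The lowest odds ratio was 0.789 on chromosome 9, whose 47 members had 9.41% ± 0.0996 at 0.25 h and 5.68% ± 0.0879 at 12 h. On chromosome 22 the members were above in 1 library and on chromosome 20 in 6. The median odds ratio over chromosomes was 1.10.

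The 2 sides of a centromere could be unlike. On chromosome 7 the long-arm side held 26.9% ± 2.58 self contacts at 0.25 h and 15.9% ± 0.0680 at 12 h, and the short-arm side 12.7% ± 1.72 and 6.26% ± 0.105. On chromosome 5 the short-arm side was the higher, with 19.4% ± 2.35 against 12.1% ± 1.77 at 0.25 h. On chromosome 16 it was also the short-arm side, with 21.6% ± 2.80 against 13.9% ± 1.6. On chromosome 19 both sides were high, at 28.3% ± 3.85 and 25.1% ± 3.49, and on chromosome 18 both were near the level of the rest, at 12.7% ± 1.77 and 12.9% ± 1.75.

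Bin by bin, the drop in self contacts was as common among pericentromeric bins as elsewhere. Of 3986 members with a mean of at least 10 self contacts, 2972 (74.6%) were higher at 0.25 h than at 12 h in limma with Benjamini-Hochberg adjustment over all autosomal bins at 0.05, where 74.8% of 112518 bins tested were. Lower at 0.25 h were 5 members (0.125%), against 0.0587% of all bins. The median log2 difference in odds was 0.83 in both, with the members at 0.834 and all bins at 0.830. The other 934 members had too few self contacts to be fitted. With each library's median subtracted, which removes the common drop, 19.8% of members were higher and 17.7% lower, against 21% and 16.3% of all bins. That alternative was chosen after seeing the data.

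Single bins showed how far the drop could go. In the bin at chr6:62620001-62640000, 0.760 Mb from the run on the long arm, self contacts numbered 71 and 99 after 0.25 h, 58 and 42 after 1 h, 47 and 33 after 3 h, and 7 and 6 after 12 h, while its other contacts went from 491 and 238 to 561 and 476. Its self-bin share thus lay at 12.6% and 29.4% at 0.25 h and at 1.23% and 1.24% at 12 h, with no overlap (log2 difference 4.19, SE 0.373, limma adjusted p = 2.54e-05). Next came 2 bins on the long arm of chromosome 3. In chr3:95980001-96000000 (log2 difference 4.19, SE 0.294) self contacts were 27 and 22 after 0.25 h and 2 and 3 after 12 h. In chr3:96260001-96280000 (3.95, SE 0.370) they were 61 and 56 after 0.25 h and 5 and 8 after 12 h. All 3 differences thus rested on few self contacts at 12 h. The 3 largest differences in the other direction were small counts as well. In chr12:33920001-33940000 self contacts were 10 and 2 after 0.25 h and 20 and 28 after 12 h (log2 difference -1.11, SE 0.393, limma adjusted p = 0.0261), and chr9:44860001-44880000 (-0.77) and chr20:24620001-24640000 (-0.74) rested on 2 to 25 self contacts per library. The remaining 2 of the 5 were chr13:21760001-21780000 (-0.74) and chr20:24800001-24820000 (-0.58), named because the count was small. The bins on chromosomes 9 and 13 and chr20:24620001-24640000 reached the minimum of 10 only through the 12 h libraries, where they were high, and without those had means of 9.50, 7.83 and 9.83, so their calls are not support for a change. With the minimum set on the 1 h and 3 h libraries alone, an alternative chosen after seeing the data, 0.10% of members were lower, against 0.0579% of all bins. Without 0.25 h replicate 1 the members called lower were 0.602%, against 0.616% of all bins, and without 12 h replicate 2 0.0251%, against 0.0151%. Gene content of these bins was not analysed here.

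Away from the diagonal, that is counting only contacts between different bins, pericentromeric bins held slightly fewer contacts than other bins. The ratio of mean contacts per bin was 0.941 ± 0.0172, 0.933 ± 0.00572, 0.944 ± 0.00144 and 0.910 ± 0.000627 at 0.25, 1, 3 and 12 h (SD, n = 2). The log2 ratio over libraries was -0.10 ± 0.024 (SD, n = 8; below 0 in 8 of 8, exact sign-flip permutation p = 0.00781), with no detectable trend (rho -0.488, exact permutation p = 0.247; r -0.642, exact permutation p = 0.0921). As medians over bins the log2 ratio was -0.36, and its trend turned to rho 0.878 (exact permutation p = 0.0103, not adjusted). The mean was again pulled up by the fullest bins: without those over 3 times the median the log2 ratio was -0.32. These bins were picked on the contacts that the ratio counts. They made up 3.6% of members and 1.25% of other bins, so a fall follows by construction. The direction turned among members with 5 present bins on each side, at 0.025 (exact sign-flip permutation p = 0.0312), and within 1.5 Mb of the run, at 0.026 (exact sign-flip permutation p = 0.156). In both, only the members were restricted, and other autosomal bins beside gaps stayed in. Chromosome 19 members held 3.00 times the contacts per bin of the rest of their chromosome, whereas those of chromosome 2 held 0.417 times and those of chromosome 9 0.418 times.

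Between 0.25 h and 12 h pericentromeric bins were called in both directions in their share of the off-diagonal contacts of all autosomal bins, at rates near those of all bins. Of 4920 members 1063 (21.6%) had a higher share of these at 0.25 h than at 12 h in limma, against 21.2% of all 129998 autosomal bins, and 1567 (31.8%) a lower one, against 35.5%. With median-of-ratios size factors in place of totals, 27.9% of members were higher and 24.9% lower, against 28.6% and 28.3% of all bins, so the scaling moved the split of all bins as well. As a share of all contacts of the library, self contacts included, 5.10% of members were higher and 64.2% lower, against 3.66% and 70.3% of all bins, an alternative chosen after seeing the data. Counting only contacts between chromosomes, 4.90% of members were higher and 3.21% lower, against 2.75% and 3.94% of all bins. The 3 largest positive differences were all on the short arm of chromosome 19, with chr19:22500001-22520000 (0.95, SE 0.0589) and chr19:22920001-22940000 (0.93, SE 0.0625) behind the first. In that first bin, chr19:22940001-22960000, off-diagonal contacts were 5357 and 3407 after 0.25 h, 5364 and 3573 after 1 h, 6289 and 4459 after 3 h, and 5534 and 4023 after 12 h, although the 12 h libraries held more contacts in all. As a share of off-diagonal contacts this was a log2 difference of 1.00 (SE 0.0676, limma adjusted p = 1.02e-09), and as a share of all contacts 0.81 (SE 0.0624, limma adjusted p = 1.09e-08). The share of its contacts that joined other chromosomes went the other way, from 8.05% and 8.10% at 0.25 h to 16.8% in both 12 h libraries. The largest negative differences were at chr22:18260001-18280000 (-0.98, SE 0.0635), with 455 and 239 contacts at 0.25 h and 1513 and 1374 at 12 h, and at chr2:97500001-97520000 (-0.95, SE 0.131) and chr2:97600001-97620000 (-0.86, SE 0.145).

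Pericentromeric bins sent more of their contacts to other chromosomes than other autosomal bins did. The trans share, the percentage of off-diagonal contacts that join another chromosome, was 15.7% ± 0.634, 15.9% ± 0.234, 15.8% ± 0.354 and 17.1% ± 0.0538 at 0.25, 1, 3 and 12 h, against 12.5% ± 0.592, 12.7% ± 0.234, 12.7% ± 0.333 and 13.4% ± 0.119 in other autosomal bins (SD, n = 2). The difference was 3.30 percentage points ± 0.211 (SD, n = 8), above 0 in 8 of 8 libraries (exact sign-flip permutation p = 0.00781), and 5.33 points in the first sequencing run at 50 kb. With only members that had 5 present bins on each side, and other bins not restricted, it was 1.62 points. Without chromosomes 13, 14, 15, 21 and 22 in both sets it was 2.37 (exact sign-flip permutation p = 0.00781 for each of the 2, n = 8). Its trend with time was not detectable (rho 0.390, exact permutation p = 0.361; r 0.662, exact permutation p = 0.0730). Subtelomeric bins had a higher trans share than the members, 19.7% ± 0.943 at 0.25 h and 20.8% ± 0.302 at 12 h.

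The trans share was highest beside gaps in the map. The 1167 members (23.7%) with an absent bin among the 5 on either side had 24.4% ± 1.04 at 0.25 h and 25.3% ± 0.000972 at 12 h. The 3753 with all neighbours present had 13.9% ± 0.523 and 15.4% ± 0.0579. They lay slightly below the flanking bins (14.8% ± 0.672 and 15.8% ± 0.171) in every library, where flanking bins beside gaps stayed in. Near contacts with absent bins are not counted, which by construction can raise the trans share beside gaps. The size of this part was not tested. By chromosome, members exceeded the rest of their own chromosome in all 8 libraries on 15 and were below it in all 8 on 6, namely chromosomes 3, 6, 7, 11, 12 and 19. The highest values, as means of 8 libraries, were 62.1% on chromosome 21, against 18.1% in the rest of it, and 49.0% on chromosome 9, against 17.2%. The lowest was 10.2% on chromosome 11, against 13.1%.

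Contacts mapped between pericentromeric bins of different chromosomes, any misplaced reads included, were about 2 times as many as their contacts with each chromosome predict. Observed over expected trans contacts, with the expected number taken within each pair of chromosomes from the members' share on each side, were 2.03 and 2.16 after 0.25 h, 2.01 and 2.07 after 1 h, 2.00 and 2.03 after 3 h, and 1.95 and 1.99 after 12 h. Both libraries at 12 h were the lowest, and 0.25 h replicate 2 was the highest. The log2 ratio was 1.02 ± 0.044 (SD, n = 8), above 0 in 8 of 8 (exact sign-flip permutation p = 0.00781). Flanking bins among themselves reached 1.12 ± 0.0104 at 0.25 h and 1.14 ± 0.00903 at 12 h, and members exceeded them by 0.85 ± 0.055 on the log2 scale in 8 of 8 libraries (exact sign-flip permutation p = 0.00781). Subtelomeric bins among themselves reached 1.69 ± 0.00944 and 1.77 ± 0.00551, lower than the members by 0.24 ± 0.068 on the log2 scale (8 of 8, exact sign-flip permutation p = 0.00781).

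Contacts mapped between chromosome ends and centromere sides were fewer than predicted. Members with subtelomeric bins had 0.891 ± 0.00308, 0.871 ± 0.000925, 0.865 ± 0.00598 and 0.830 ± 0.000905 of the expected contacts for 0.25, 1, 3 and 12 h (SD, n = 2). The 0.25 h and 12 h libraries did not overlap, and the ratio fell with log2 hours (rho -0.976, exact permutation p = 0.000794; r -0.964, exact permutation p = 0.000794; r without the 0.25 h libraries -0.939, without those of 12 h -0.942). This trend is one of 9 that were added after seeing the data, and its p was not adjusted.

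The trend of contacts among members with digestion time missed the threshold after adjustment when libraries were permuted freely, and its direction was not the same in every alternative. Over all pairs it was rho -0.781 (exact permutation p = 0.0349, adjusted over 9 trends 0.0629) and r -0.756 (exact permutation p = 0.0222, adjusted 0.050; -0.788 without 0.25 h and -0.593 without 12 h). At every time replicate 2 lay above replicate 1, and within each replicate number the ratio was lower at each longer time. Replicate 2 was also the shallower library at every time, and over the 8 libraries the ratio fell without exception as depth rose (Spearman's rho -1.0 with total contacts, a relation computed after seeing the data, exact permutation p = 4.96e-05, the smallest possible, adjusted over 9 relations 0.000149; Pearson's r -0.972, exact permutation p = 2.48e-05, adjusted 7.44e-05; r -0.993 without the shallowest and the deepest library). Depth itself rose with time (rho 0.781), so depth and time cannot be told apart in this trend, and that holds with and without a block. With times permuted only within replicate numbers, the trend passed (exact permutation p = 0.00347, the smallest possible, adjusted over 9 trends 0.00781), although the labels do not say what a number shares and depth has the same order within each number. Unblocked, the trend also missed 0.05 unadjusted without 0.25 h replicate 2, 3 h replicate 1 or either 12 h library, at rho -0.716 to -0.679. With the expected number taken genome-wide it was rho -0.878 (exact permutation p = 0.0103), and without bins over 3 times the median contacts rho -0.830 (exact permutation p = 0.0198). On the deposited balanced signal, within 1.5 Mb of the run and in the first run it missed 0.05, with values in the closing section. With only members that had 5 present bins on each side, the ratio was 1.56 ± 0.0402 at 0.25 h and 1.56 ± 0.0189 at 12 h, with no detectable trend (rho 0.195, exact permutation p = 0.672). Without the 1% of member bin pairs that held the most contacts, the ratio went through 1.41 ± 0.0105, 1.45 ± 0.0106, 1.45 ± 0.0144 and 1.52 ± 0.0223 at 0.25, 1, 3 and 12 h (rho 0.927). These pairs were picked on their contacts and left out of the observed but not the expected number. The lower level therefore follows from the choice, and the rise restates that these pairs held a falling share of the contacts. No test is given for it.

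How members compared with chromosome ends depended on which bins and pairs were kept, here by the same rule in every set, as chosen after seeing the data. With only bins that had 5 present bins on each side, subtelomeric bins reached 1.35 ± 0.0403 at 0.25 h and 1.41 ± 0.000160 at 12 h, and members exceeded them by 0.17 on the log2 scale (exact sign-flip permutation p = 0.00781, n = 8). Without the 1% of bins of each set with the highest share of contacts inside the set, the members had 1.83 ± 0.0730 and 1.73 ± 0.0214 and subtelomeric bins 1.59 ± 0.0204 and 1.7 ± 0.00659, a log2 difference of 0.13. Without bins over 3 times the median contacts the difference was 0.12. Without the fullest 1% of bin pairs of each set, subtelomeric bins had 1.5 ± 0.0353 and 1.61 ± 0.00616, and the difference was -0.074. The bins and pairs of these 1% rules were picked on the contacts that the ratio counts, so a set with more of its contacts in few pairs falls further by construction, and these differences are given with no test. Pairs tied at the threshold were all left out, so a set with many low counts can lose more than 1%. Among flanking bins the exact 1% held 2.22% of contacts, yet the ratio went from 1.12 ± 0.0104 to 1.06 ± 0.0180 at 0.25 h. The sets were therefore not trimmed by equal shares of pairs. Flanking bins stayed below the members in each of these comparisons, by 0.46, 0.66, 0.73 and 0.45 on the log2 scale in the order given.

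**Figure D3:**
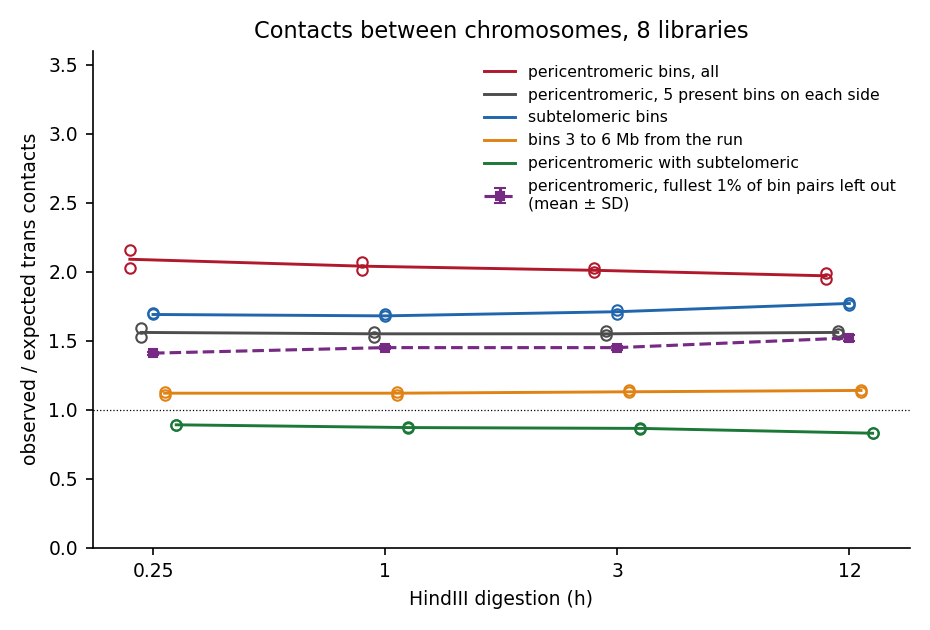
Observed over expected contacts between chromosomes against HindIII digestion time in hours. Circles are single libraries, and lines join means of 2. Squares with bars are mean ± SD of 2 libraries after leaving out the fullest 1% of member bin pairs from the observed contacts only. All pericentromeric pairs go from 2.09 at 0.25 h to 1.97 at 12 h, whereas without the fullest pairs they go from 1.41 to 1.52.

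Few bin pairs held much of the contact among pericentromeric bins. Of 276728 pairs of members on different chromosomes with any contact, 2934 held at least 11 contacts over the 8 libraries, and these held 26.9% of all 453468 contacts. The fullest 1% of pairs held 26.5% among members and 2.22% among flanking bins. Contacts in the pairs with at least 11, which were picked on the 8 libraries added, per 1000000 contacts of the library numbered 150 ± 29.3, 133 ± 9.70, 130 ± 5.35 and 112 ± 1.42 for 0.25, 1, 3 and 12 h (SD, n = 2). Those in all other member pairs went the other way, with 312 ± 10.8, 330 ± 9.65, 338 ± 10.7 and 380 ± 6.84. As a share of contacts among members the fullest pairs fell from 32.3% ± 3.53 to 22.8% ± 0.0935 (rho -0.976, r -0.916, r without the 0.25 h libraries -0.945, without those of 12 h -0.770). The trend was added after seeing the data. Its pairs were picked on the same contacts, with deeper libraries weighing more, so no test is given. Of the 50 members with the highest share of contacts to other members, 35 had an absent bin among the 5 on a side, against 23.7% of all members, and the part of misplaced reads in these contacts was not tested.

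The fullest bin pair joined chr16:33980001-34000000, on the short-arm side, with chr21:10700001-10720000. It held 385 and 401 contacts after 0.25 h, 338 and 298 after 1 h, 402 and 374 after 3 h, and 249 and 187 after 12 h, 2634 in all, while the average over all possible member pairs was 0.0395. A pair of nearby bins on chromosome 16, chr16:33960001-33980000 with 1773 contacts and chr16:33900001-33920000 with 1348, had the same partner bin on chromosome 21. Counts of the latter were 158 and 167 after 0.25 h and 150 and 154 after 12 h. The bins chr9:68420001-68440000 and chr20:29620001-29640000 shared 245 and 238 contacts after 0.25 h, 185 and 175 after 1 h, 203 and 149 after 3 h, and 118 and 91 after 12 h, against a mean of 116 in all over the surrounding pairs of bins. The fifth pair, chr7:61860001-61880000 with chr16:32480001-32500000, held 1144. Between flanking bins no pair held more than 78 contacts.

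All 22 autosomes had more contacts than expected with the pericentromeric bins of the others, but by different amounts. The highest ratios, as means of 8 libraries, were 3.16 ± 0.180 on chromosome 9, 3.07 ± 0.132 on chromosome 7 and 2.95 ± 0.107 on chromosome 21 (SD, n = 8 over all times), and the lowest was 1.16 ± 0.0285 on chromosome 18. Chromosome 7 combined a high ratio with a low trans share, and chromosomes 9 and 21 had few members, 47 and 60, and high trans shares. Chromosomes 8 and 13 followed 18 from below, with 1.48 ± 0.0329 and 1.6 ± 0.0598, and these 3 did not overlap within their SD.

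**Figure D4:**
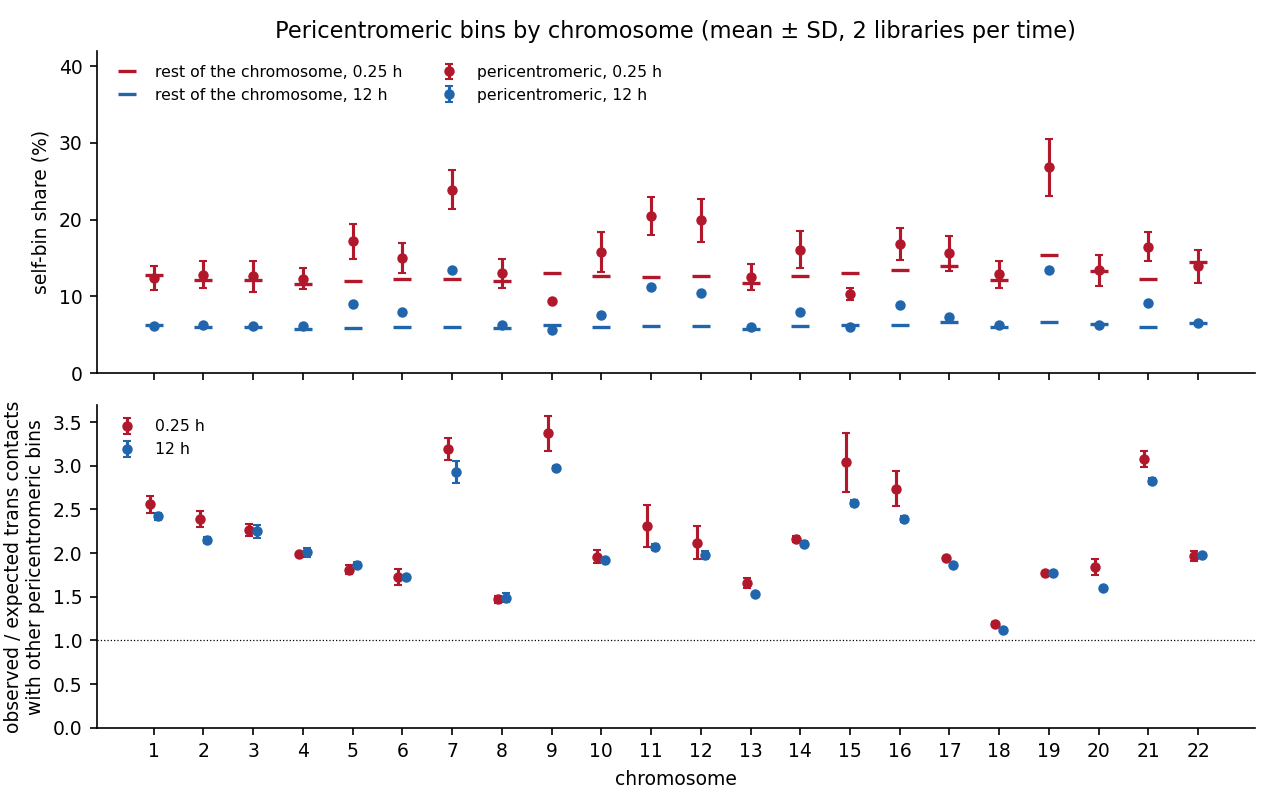
Top, self-bin share (%) of pericentromeric bins on each autosome at 0.25 h and 12 h, with dashes for the rest of the same chromosome. Bottom, observed over expected trans contacts with pericentromeric bins of other autosomes. Points are mean ± SD of 2 libraries. Chromosomes 7 and 19 have the highest self-bin shares, and chromosomes 9, 7 and 21 the highest trans ratios.

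Across the 231 pairs of autosomes, contacts among pericentromeric bins were above the expected number in 223 and more than 2 times it in 79. The median ratio was 1.7, with quartiles of 1.42 and 2.24. Chromosomes 14 and 15 stood highest with 1702 contacts where 203 were expected (8.39), from 6.77 in the lowest library to 9.29 in the highest. Both are acrocentric, and the other 9 pairs of acrocentric chromosomes lay from 1.4 for chromosomes 13 and 14 to 3.88 for chromosomes 15 and 22. Chromosomes 2 and 21 had 3627 (6.45), chromosomes 1 and 4 had 14169 against 2197 (6.45), chromosomes 1 and 21 had 12386 against 1965 (6.30), and chromosomes 9 and 15 had 382 against 62.1 (6.15). This order is over the libraries added, where deeper ones weigh more, and below chromosomes 14 and 15 it was not the same at each time. At 12 h chromosomes 3 and 6 (6.36 ± 0.0481) stood above chromosomes 2 and 21 (6.12 ± 0.310), and at 0.25 h chromosomes 2 and 9 (6.56 ± 0.390) above chromosomes 1 and 21 (6.46 ± 0.110), both within the SD. The lowest of the 8 pairs below the expected number were chromosomes 18 and 21, with 1131 against 1611 (0.702), and chromosomes 1 and 13, with 953 against 1205 (0.791). The single pair with the most contacts was chromosomes 5 and 19, with 55158 against 28605 expected (1.93), of 453468 over all pairs. The 5 highest pairs by ratio held 7.12% of contacts, and without them the ratio over all others was 1.91. K562 carries rearranged chromosomes, and the part of junctions between chromosomes in these pair counts was not tested.

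**Figure D5:**
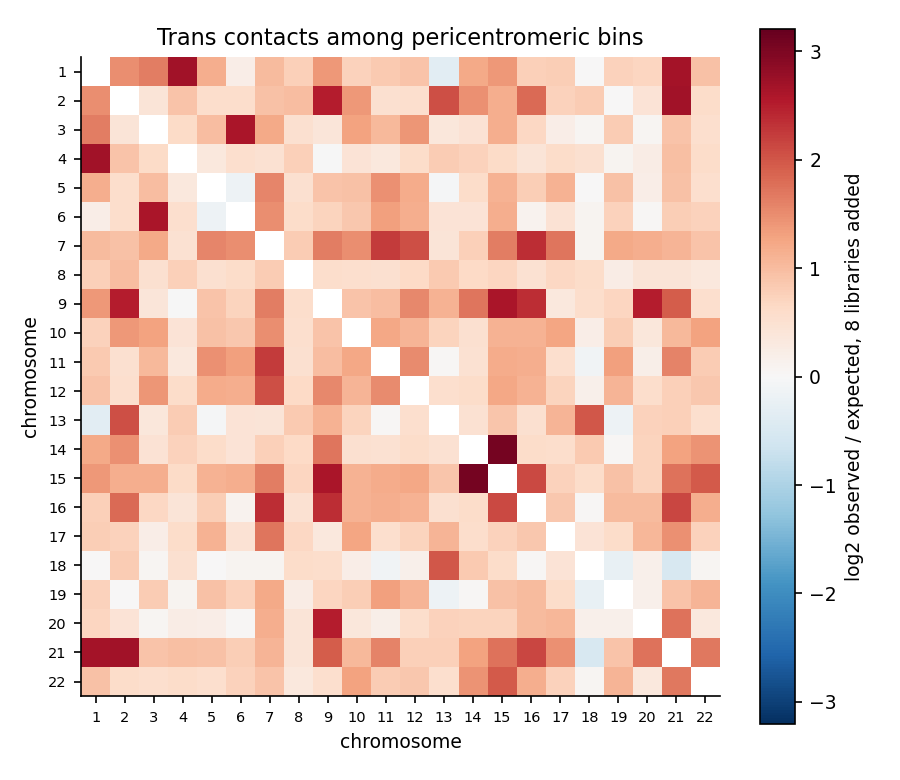
Log2 of observed over expected contacts between the pericentromeric bins of each pair of autosomes, with the 8 libraries added. Red is above and blue below the expected number, and the diagonal is empty. Nearly all pairs are red (223 of 231), the darkest being chromosomes 14 and 15, and chromosome 18 has the palest row.

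Few of these pairs were called different between 0.25 h and 12 h. In limma with Benjamini-Hochberg adjustment over the 231 pairs, 4 were higher at 0.25 h than at 12 h (1.73% of pairs tested) and 1 lower (0.433%), and 45 had an unadjusted p under 0.05. Chromosomes 14 and 15 went from 9.21 ± 0.0999 at 0.25 h to 6.79 ± 0.0346 at 12 h (log2 difference 0.43, SE 0.042, limma adjusted p = 0.00217). Chromosomes 7 and 20 went from 2.88 ± 0.266 to 1.75 ± 0.0183, chromosomes 9 and 16 from 6.15 ± 0.972 to 4.30 ± 0.0362, and chromosomes 13 and 18 from 4.56 ± 0.199 to 3.58 ± 0.210. Chromosomes 14 and 22 were the pair that was lower at 0.25 h, with 2.35 ± 0.00853 against 2.97 ± 0.0134 (log2 difference -0.34, SE 0.063). Each of the last 4 had a limma adjusted p of 0.0393. In the first run none of the pairs passed (0%). Without 0.25 h replicate 1, 4.76% of pairs were higher and 3.03% lower. Leaving out any 1 library of 1, 3 or 12 h left 0.433% higher and 0% lower, and 0% were lower without 0.25 h replicate 2.

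Distance from the run graded these contacts more than digestion did. At 0.25 h the ratio of observed to expected contacts with members was 2.75 ± 0.117 within 0.5 Mb, 2.23 ± 0.117 from 0.5 to 1 Mb, 1.93 ± 0.0729 from 1 to 2 Mb and 1.57 ± 0.0615 from 2 to 3 Mb. Beyond the members it was 1.15 ± 0.00685 from 3 to 6 Mb and 1.06 ± 0.0165 from 6 to 9 Mb. At 12 h the ratios were 2.61 ± 0.0577 in the first band and 1.49 ± 0.00516 in the last band of members, and 1.17 ± 0.00144 and 1.10 ± 0.00503 in the outer bands. Contacts among members within 1.5 Mb of the run were 2.90 ± 0.149 times the expected number at 0.25 h and 2.77 ± 0.0663 at 12 h.

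Insulation describes how few contacts cross a bin, and a low score marks a domain boundary. The score here was the log2 of the mean balanced signal over pairs of present bins in a square reaching 500 kb to each side, over the chromosome mean. At least 60% of the bins on each side had to be present, and distance was not corrected for. Within 500 kb of the run or of a chromosome end the square loses its farthest pairs. The score could be computed for 3943 of the 4920 members, and for 223 of the 782 bins within 0.5 Mb. The median member score was 0.116 and 0.106 after 0.25 h, 0.117 and 0.105 after 1 h, 0.109 and 0.107 after 3 h, and 0.0974 and 0.0995 after 12 h. Every library at 12 h lay below every earlier one, while the other 3 times overlapped.

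Pericentromeric bins were therefore crossed by somewhat more balanced signal than the rest, in which the median lay between 0.00384 ± 0.00168 and 0.00571 ± 0.00109. The difference was 0.10 ± 0.0070 (SD, n = 8), above 0 in 8 of 8 libraries (exact sign-flip permutation p = 0.00781). Without balancing, on the recovered contacts, it was -0.10 (exact sign-flip permutation p = 0.00781), so its direction rests on the balancing. Subtelomeric bins stood higher still, at 0.189 ± 0.000260 at 0.25 h and 0.172 ± 0.00193 at 12 h, with squares cut beside the chromosome end. The difference between members and other bins went from 0.107 ± 0.00552 at 0.25 h to 0.0932 ± 0.00166 at 12 h (rho -0.781, exact permutation p = 0.0349, adjusted 0.0629; r -0.779, exact permutation p = 0.0278, adjusted 0.050; -0.862 without 0.25 h and -0.403 without 12 h). With times permuted only within replicate numbers it gave an exact permutation p of 0.0278 by rho (adjusted 0.050) and 0.0243 by r (adjusted 0.0437), the latter past the threshold. Unblocked, it missed 0.05 unadjusted without any 1 library of 0.25, 3 or 12 h. In the first run the trend was rho -0.049 (exact permutation p = 0.946).

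The balanced score was highest next to the gap, with 0.419 ± 0.0303 within 0.5 Mb at 0.25 h, 0.189 ± 0.00630 from 0.5 to 1 Mb, 0.112 ± 0.00523 from 1 to 2 Mb and 0.0424 ± 0.00818 from 2 to 3 Mb. Within 0.5 Mb the gap cuts the square, which then averages closer pairs, so the first band is raised by construction. The size of this part was not tested. In 12 of the 21 autosomes with scored members the balanced score was above the rest of the chromosome in all 8 libraries, led by chromosome 7 at 0.254 ± 0.0183 and chromosome 3 at 0.245 ± 0.0207 (means of 8). The lowest were chromosome 15 at -1.11 ± 0.0465, from 14 scored members, chromosome 21 at -0.286 ± 0.0716, from 9, and chromosome 22 at -0.124 ± 0.0278, from 66. All 3 were below the rest of their chromosome in all 8 libraries. Of the other acrocentric chromosomes, chromosome 13 stood at 0.135 ± 0.0344, from 131 scored members and above its rest in all 8, and chromosome 14 at 0.00989 ± 0.0220, from 79 and above in 6. Chromosome 9 had no scored member. On recovered contacts without balancing, a comparison by band and chromosome chosen after seeing the data, these orders were not the same. The first band at 0.25 h was still above the others within 3 Mb, at 0.122 ± 0.0139, but the next were -0.162 ± 0.0101, -0.143 ± 0.020 and -0.222 ± 0.00781, below the -0.134 ± 0.00734 from 3 to 6 Mb. Without balancing, members were above the rest of their chromosome in all 8 libraries on 7 of the 21 autosomes and below it in all 8 on the other 14. Chromosomes 7 (-0.862 ± 0.0502), 3 (-0.347 ± 0.0742) and 13 (-0.887 ± 0.0371) were then below their rest, and chromosome 22 (0.138 ± 0.0558) above it, so for these 4, among others, the direction rests on the balancing.

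Local minima of the score, the usual call for domain boundaries, taken at a prominence of at least 0.2, numbered 2.17 ± 0.126, 2.09 ± 0.0179, 2.05 ± 0.0717 and 1.98 ± 0.0359 per 100 scored members for 0.25, 1, 3 and 12 h. In other autosomal bins there were 2.44 ± 0.0414, 2.40 ± 0.0207, 2.40 ± 0.000575 and 2.25 ± 0.0264. The ratio of members to others was 0.888 ± 0.0364 at 0.25 h and 0.878 ± 0.00561 at 12 h, with no detectable trend (rho -0.0976, exact permutation p = 0.861; r -0.230, exact permutation p = 0.602). In the first run at 50 kb that trend was rho -0.830 (exact permutation p = 0.0198). Minima were sought within unbroken stretches of scored bins, so the end of a stretch could not be one. Scores were available for 3943 of 4920 members and 122999 of 125078 other autosomal bins. More breaks among members can lower their rate by construction, and the size of this part was not tested.

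A single pericentromeric bin passed the test for a change in its balanced insulation score. In limma with adjustment over 126942 autosomal bins, 1 of 3943 scored members was higher at 0.25 h than at 12 h (0.0254%, against 0.00551% of all bins) and 0 were lower (against 0%), while 589 (14.9%) had an unadjusted p under 0.05, against 9.68% of all bins. The bin, chr6:57940001-57960000, lies 0.840 Mb from the run on the short arm of chromosome 6 and has an absent bin among its neighbours. Its scores were -0.223 and -0.192 after 0.25 h, -0.353 and -0.348 after 1 h, -0.438 and -0.556 after 3 h, and -0.661 and -0.765 after 12 h. The times did not overlap and stood in the order of digestion (log2 difference 0.51, SE 0.048, limma adjusted p = 0.0308). The call was lost, leaving 0% of members, without either 1 h library or either 12 h library, and without 0.25 h replicate 1 as many as 1.52% of members were higher and 0.685% lower, against 0.444% and 0.422% of all bins. With a window of 1 Mb 0.508% of members were higher, against 0.234% of all bins. Without balancing 37.3% were higher and 24.0% lower, against 24.5% and 32.6% of all bins, so the small count rests on the balancing.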

How the data were processed

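Each file the authors deposited lists bin pairs with their contact signal after balancing, which gives all bins one total. The submitters' processing notes name HiC-Pro 2.11.1, Bowtie2 2.3.4.1 and build hg19, without saying what each did, and the read filters are not given in the sources used here. Bin numbers match bins of 20 kb (second run, used here) and 50 kb (first run, an alternative) of hg19.

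Whole contacts were recovered by finding a factor per bin, and 100% of listed pairs (rounded) in each of the 16 files came within 0.01 of a whole number. The members and lists were chosen with earlier results of these data known. Trends over 8 libraries used exact permutation of log2 hours, and differences used exact sign flips. Bins and chromosome pairs were fitted with limma 3.58.1 in R 4.3.3, with 0.5 added to counts, and Benjamini-Hochberg adjustment over all autosomal bins or pairs. Other scripts used Python 3.11.15 and numpy 2.4.6. An exact test of 2 libraries against 2 cannot go below p = 0.333, so none was made. Scripts were tested on simulated data.

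The reported fits and trends have no replicate block. Same-numbered libraries deviated together in contacts by bin (correlations of 0.111 to 0.260 over 6 pairs of times). Replicate 2 was the shallower library at all 4 times, so depth and a pairing by number cannot be told apart there. The blocked counts, which stayed within 1.5 times, are given in the closing section. The rule for named items was, per fit, the 3 members with the largest difference in each direction among those past 0.05 whose 0.25 h and 12 h libraries do not overlap, the 5 highest and 2 lowest chromosome pairs, the 5 fullest bin pairs, and the highest and lowest chromosomes. Sequences and genes were not analysed here.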

Additional observations from a re-analysis of the deposited data

How the results depend on the processing

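Depth and map gaps set the limits here. There were 2 libraries a time, 934 members had too few self contacts to be fitted and 977 had no insulation score. Of 390 alternatives tried over all results, 275 left a tested result on the same side of 0.05 without turning its direction, or a count of calls within 1.5 times, and 2 of these trends had rho 0 and so no direction. The first run at 50 kb, the thinner and coarser data, gave the same direction for every difference from other bins.

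Trends with log2 hours below are Spearman's rho. The trend of trans contacts among members was -0.586 in the first run, -0.439 within 1.5 Mb, 0.195 with full neighbours, -0.732 without the acrocentric chromosomes, 0.927 without the fullest 1% of pairs and -0.0488 on the deposited balanced signal. It passed 0.05 unadjusted at -0.878 with the genome-wide expected number (exact permutation p = 0.0103), at -0.830 without bins over 3 times the median (exact permutation p = 0.0198), and at -0.781 without the 1% of members with the highest share of member contacts (exact permutation p = 0.0349). Against flanking bins it was -0.683 within 1.5 Mb, -0.0488 with full neighbours, -0.732 without acrocentric chromosomes, 0.830 without the fullest pairs (of members or of every set), -0.146 with full neighbours in every set and -0.488 on the balanced signal. Against subtelomeric bins it was -0.732 in the first run, within 1.5 Mb, with full neighbours and without acrocentric chromosomes, 0.586 without the fullest pairs of members, 0.195 without those of every set, -0.439 with full neighbours in every set and -0.146 on the balanced signal. The log2 difference from subtelomeric bins was -0.139 with full neighbours and -0.230 without the fullest pairs where members alone were restricted, and leaving out the fullest pairs lowers one side by construction. With every set restricted by the same rule it was 0.174 and -0.0735, the latter again on pairs picked by their contacts, with all ties at the threshold left out. Without the 1% of members with the highest share of member contacts it was 0.0540, and 0.127 with every set trimmed. The trend of the self-bin share against other bins was -0.537 in the first run and 0.878 as medians over bins (exact permutation p = 0.0103), where the log2 difference was -0.0708, and -0.0976 without bins over 3 times the median. That of the trans share was -0.244 in the first run and -0.0976 without such bins. That of contacts per bin was 0.878 as medians (exact permutation p = 0.0103) and 0.0976 without such bins, and its log2 difference was 0.0260 within 1.5 Mb and 0.0251 with full neighbours. The insulation trend was -0.0488 in the first run, -0.634 with full neighbours and -0.683 without bins over 3 times the median, and its difference was -0.104 without balancing. The trend of insulation minima was -0.830 in the first run and 0.0488 with full neighbours. The cause of these shifts was not tested.

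Calls by bin and pair, in percent of members or pairs, moved as follows, with the percent of all bins in the same fit in parentheses. Lower self-bin share at 0.25 h was called in 0.0523% within 1.5 Mb (0.0587%), 0.0753% by a linear trend (0.0551%), 0.0587% in the first run (0.0657%), 0% with at least 50 self contacts (0.00604%) and 0% with 5 contacts added (0.00444%). With library medians subtracted, 19.8% were higher (21%) and 17.7% lower (16.3%). For contacts, 12.9% were higher (11.1%) and 14.6% lower (17.9%) in the first run, 4.90% (2.75%) and 3.21% (3.94%) with contacts between chromosomes only, and 5.10% (3.66%) and 64.2% (70.3%) as shares of all contacts of the library. For insulation, 0.0612% were higher within 1.5 Mb and 0% with full neighbours (0.00551% for both), 0.0507% were higher (0.00867%) and 0.0254% lower (0.00394%) by a linear trend, 0.123% higher in the first run (0.00391%), 0% with a 300 kb window (0%) and 0.508% with 1 Mb (0.234%). Without balancing 37.3% were higher (24.5%) and 24.0% lower (32.6%). Chromosome pairs gave 0% in both directions in the first run, 0.866% higher and 0% lower within 1.5 Mb, and 0.433% higher and 0% lower with full neighbours.

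Leaving out 1 library at a time, trends ranged from -0.899 to -0.679 for trans contacts among members, alone and against flanking or subtelomeric bins, from -0.863 to -0.679 for insulation, from -0.385 to 0.257 for insulation minima, and from -0.147 to 0.385 for the self-bin share against other bins. Insulation was called higher in 0% to 1.52% of members and lower in 0% to 0.685% (0.444% and 0.422% of all bins at the upper end), self-bin share lower in 0.0251% (0.0151% of all bins) to 0.602% (0.616%), and chromosome pairs higher in 0.433% to 4.76% and lower in 0% to 3.03%. No difference from other bins changed direction in this way.

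Replicate numbers were not taken as pairs in any reported fit. Correlations were 0.0276 to 0.181 for the self-bin share, 0.0169 to 0.0218 for insulation and -0.145 to 0.140 for chromosome pairs. With the replicate number as a block, insulation was called higher in 0.178% of members (0.0221% of all bins), and the trend of the members' self-bin share kept rho -0.976 (exact permutation p = 0.00347, the smallest with a block). With times permuted within replicate numbers, the trends of trans contacts among members, alone and against flanking or subtelomeric bins, passed after adjustment (rho -0.781, exact permutation p = 0.00347, adjusted over 9 trends 0.00781, against 0.0629 without the block). All 3 also fell without exception as total contacts rose (rho -1.0), replicate 2 being shallower at all 4 times, so depth and time cannot be told apart in them. The insulation trend gave an exact permutation p of 0.0278 with the block, adjusted 0.050 by rho and 0.0437 by r. The other trends did not change sides, and the other counts of calls stayed within 1.5 times, with 23.8% of members higher and 34.2% lower in contacts by bin, against 23.3% and 38% of all bins.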

Other observations

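Chromosomes 19, 17 and 22 are known as gene-rich and chromosomes 13, 18 and 4 as gene-poor. Pericentromeric bins of the other autosomes made 0.474 ± 0.00653, 0.474 ± 0.00455, 0.485 ± 0.00376 and 0.504 ± 0.00719 contacts with the gene-rich group for each contact with the gene-poor group for 0.25, 1, 3 and 12 h (SD, n = 2). Other autosomal bins made 0.404 ± 0.00166, 0.413 ± 0.00418, 0.424 ± 0.00631 and 0.469 ± 0.00947, and flanking bins 0.481 ± 0.00839 at 0.25 h and 0.571 ± 0.0137 at 12 h. The members' ratio relative to other bins was thus 1.17 ± 0.0210, 1.15 ± 0.000574, 1.14 ± 0.00816 and 1.07 ± 0.00634 at 0.25, 1, 3 and 12 h. It was ordered with log2 hours in a trend added after seeing the data, one of 9 with no adjustment (Spearman's rho -0.878, exact permutation p = 0.0103; Pearson's r -0.904, exact permutation p = 0.00238, n = 8; r -0.905 without the 0.25 h libraries and -0.768 without those of 12 h). The 6 chromosomes were taken from an earlier analysis of these data. Members of chromosome 5 were included, and their contacts with chromosome 19 count as gene-rich. Among pericentromeric bins that pair alone held 55158 contacts over the 8 libraries, against 28605 expected. The ratio was not computed without it.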
